A study of Mus musculus with 35 samples.

Results

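The acid response of cytotoxic CD8+ T lymphocytes (CTLs) was compared between cells that received interleukin-2 (IL-2) and cells that did not, gene by gene. The comparison is a difference of differences: the change from pH 7.4 to pH 6.6 where IL-2 was present, minus the same change where it was not. It used 20 of the 35 libraries of the series, 5 in each of 4 groups, and every gene of the count tables. The cells were OT-I CTLs, which come from mice whose T cells carry a transgenic T-cell receptor for an ovalbumin peptide, and no other allele or deletion is named. Their CD8+ T cells had been primed through CD3 and CD28 and expanded for days in 200 IU/mL murine IL-2 before all groups were set up, so the groups without IL-2 are cells from which the cytokine was withdrawn for 24 h. The 4 groups were 24 h at pH 7.4, 24 h at pH 6.6, 24 h at pH 7.4 with 200 IU/mL IL-2 and 24 h at pH 6.6 with 200 IU/mL IL-2, each with biological replicates numbered 1 to 5. Further groups, at pH 7 with and without IL-2, and the cells at 0 h were set beside them. The medium was acidified with HCl, dead cells were removed on Ficoll before RNA extraction, and the age and sex of the animals were not given in the sources used here.

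IL-2 binds a receptor made of an alpha chain (Il2ra), a beta chain (Il2rb) and the common gamma chain (Il2rg), and signals through the kinases JAK1 and JAK3 to the transcription factor STAT5, with parallel activation of PI3K and mTORC1. In effector CD8+ T cells this signal drives growth, glycolysis, the cell cycle and the effector program, and it lowers genes of quiescent and recirculating T cells such as Il7r and S1pr1. Transcription factors of the FOXO family, which IL-2 signalling keeps out of the nucleus, are known to act on several genes of the quiescent program.

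The total count on genes was 16721319 to 33054825 per library (median 24245620.5). The groups held the T-cell markers of their label: over the 20 libraries, Cd8a was at 624 CPM or more, Cd8b1 at 196 or more and Cd3e at 350 or more. Other members of that list varied widely, with Gzmb at 64.1 to 8490 CPM, Prf1 at 10.4 to 537 and Ccl5 at 12.2 to 239. Its 11 markers summed to 4660 to 5180 CPM at pH 7.4 and 3220 to 4010 at pH 6.6. With IL-2 the sums were 11600 to 14300 at pH 7.4 and 4380 to 6500 at pH 6.6. CPM are counts scaled to library size, by the raw total in this paragraph and with edgeR's TMM factors elsewhere. Of the other markers, Ms4a1, Pax5, Siglech, Hba-a1, Hbb-bs, Ppbp and Col3a1 were at 0 in all 20 libraries and Cd4 reached 2.57 CPM. The B-cell marker Cd79b, at 0.973 to 2.3 CPM, and Epcam of the stromal and endothelial list, at 1.64 to 11.7 CPM, had counts in every library. In the list of other T and NK cells, however, Trdc, the constant region of the T-cell receptor delta chain, stood at 444 to 853 CPM and Klrb1c at 7.7 to 44 CPM. That list's sum was 728 to 888 CPM at pH 7.4, 453 to 592 at pH 6.6, 498 to 616 at pH 7.4 with IL-2 and 475 to 725 at pH 6.6 with IL-2. The summed level of the 11 myeloid markers nevertheless moved with the groups, from 16.1 to 25.8 CPM at pH 7.4, 6.35 to 11.9 at pH 6.6, 2.21 to 5.3 at pH 7.4 with IL-2 and 7.28 to 12.1 at pH 6.6 with IL-2. Itgax, which T cells also express, made up most of that sum (1.57 to 23.6 CPM), while Csf1r was at 0 in 18 of 20 libraries, Lyz2 in 14 and S100a8 in 19. The summed stromal and endothelial markers, led by Pecam1, were 92.4 to 129 CPM at pH 7.4, 44.4 to 53.4 at pH 6.6, 29.8 to 38.1 at pH 7.4 with IL-2 and 36.4 to 46.1 at pH 6.6 with IL-2. Mitochondrial genes took 0.701% to 1.085% of counts at pH 6.6 and 0.896% to 1.151% at pH 6.6 with IL-2, against 1.467% to 2.163% and 1.358% to 2.27% at pH 7.4. The part of these shifts in the results was not tested. In bulk RNA, fewer cells that express a gene and less of its RNA per cell cannot be told apart.

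IL-2 changed the acid response of most genes. Of 13819 genes tested, 9261 (67%) had an interaction past an adjusted p of 0.05 in edgeR's quasi-likelihood test with the replicate number as a block. It was higher with IL-2 for 4735 genes (34.3%) and lower for 4526 (32.8%). Higher and lower refer to the signed log2 change, so a lower acid effect can be a larger fall. The acid effect itself passed the threshold for 10539 genes (76.3%) with IL-2, 4889 higher (35.4%) and 5650 lower (40.9%), and for 9258 genes (67%) without IL-2, 4367 higher (31.6%) and 4891 lower (35.4%). Over all genes tested the median was 0.04 for the interaction, -0.07 for the acid effect with IL-2 and -0.03 for the acid effect without IL-2, all on the log2 scale. Across genes, which are not independent replicates, the acid effects of the 2 arms had a Pearson r of 0.267 and a Spearman rho of 0.243 over 13819 genes. The arms share no library.

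An interaction can take several forms, and all of them occurred. Among the 9261 genes, the acid effects of both arms passed the threshold with opposite signs for 2526 (27.3%) and with the same sign for 2404 (26%). Of the latter, 1783 moved further with IL-2 and 621 moved less. The effect with IL-2 alone passed for 2680 genes (28.9%), the effect without IL-2 alone for 1534 (16.6%) and neither for 117 (1.26%). Since an effect that misses the threshold is not shown to be absent, a gene was counted as responding in 1 arm only where the other arm's 95% interval lay within 0.5 of 0 on the log2 scale and its own effect was at least 1 in size.

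By these rules 1367 genes (9.89% of those tested) fell with acid in the presence of IL-2 and rose with acid in its absence, and 1159 (8.39%) did the opposite. No size was required of these effects, and with at least 0.5 in both arms the counts were 595 and 630. Rises and falls are in levels scaled to library size, and amounts per cell were not measured. A further 468 genes (3.39%) fell with acid only in the presence of IL-2 and 300 (2.17%) rose only then, counts that depend on the bound and were 178 and 73 with a bound of 0.3. The effect in the other arm could pass the threshold inside the bound, and it missed the threshold for 634 of these 768 genes. The counterparts were fewer, with 113 genes (0.818%) that fell and 44 (0.318%) that rose with acid only in the absence of IL-2. Without replicate 2 the last count was 28. At the edge of the reversed class, Cd8a, a chain of the CD8 coreceptor, was among the last genes inside, with an acid effect of 0.16 with IL-2 and -0.41 without, and Zfp683 among the first outside, at -1.28 and 0.74.

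**Figure D1:**
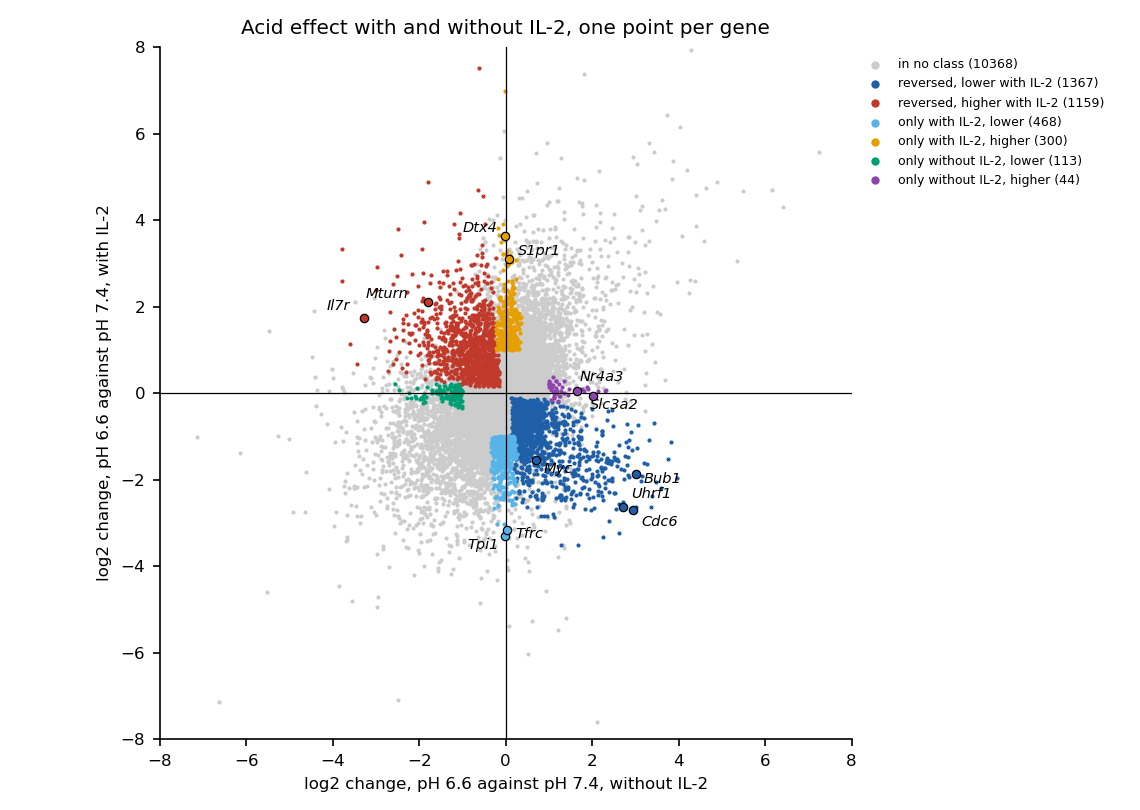
Each point is 1 of 13819 genes, with the log2 change from pH 7.4 to pH 6.6 without IL-2 on the horizontal axis and with IL-2 on the vertical axis. Colours mark the classes of the text, so the 1367 and 1159 reversed genes fill the lower right and upper left quadrants and the 468 and 300 genes that moved only with IL-2 lie along the vertical axis, while the grey genes are in no class. Named genes are ringed in black.

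The genes that fell with acid when IL-2 was present and rose when it was absent were led by genes of DNA replication. By the size of the smaller of their 2 acid effects, the leading 6 were Cdc6, which loads the replicative helicase, Uhrf1, which maintains DNA methylation behind the fork, Mcm10, which helps to activate the helicase, Rrm2, a subunit of ribonucleotide reductase, E2f8, an atypical E2F repressor of the late S phase, and Pclaf, a partner of PCNA. All 6 kept this class in 12 of 12 refits with other settings or fewer replicates. With IL-2 their acid effects ran from -2.95 to -2.52 and without it from 2.39 to 2.94.

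Cdc6 (ENSMUSG00000017499, chromosome 11, 98907801 to 98923940, GRCm38) stood at 1.07, 0.707, 1.27, 0.542 and 0.984 CPM at pH 7.4 without IL-2 in replicates 1 to 5, and at 5.97, 9.87, 10.4, 4.66 and 4.93 CPM at pH 6.6. With IL-2 it stood at 95, 108.5, 109.9, 99.7 and 109.2 CPM at pH 7.4 and at 11.4, 14.9, 14.6, 17.3 and 22.2 CPM at pH 6.6. The groups did not overlap, and acid brought the IL-2 arm down and the other arm up to levels that lay close to each other. The acid effect was -2.69 ± 0.16 (SE) with IL-2 and 2.94 ± 0.25 without, an interaction of -5.63 ± 0.30 (adjusted p = 2.49e-17, edgeR). At 0 h, before the culture was split, its mean was 24.4 ± 4.82 CPM (SD, n = 5).

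Uhrf1 (chromosome 17, 56303321 to 56323486) stood at 3.36, 2.87, 3.26, 2.8 and 3.04 CPM at pH 7.4 without IL-2 and at 16.9, 28.8, 29.2, 13.7 and 14.7 CPM at pH 6.6. With IL-2 the values were 284.1, 341.4, 327.9, 314.8 and 291 CPM at pH 7.4 and 38.7, 47.6, 43.3, 58.3 and 59.8 CPM at pH 6.6. Its interaction was -5.33 ± 0.27 (adjusted p = 1.23e-16, edgeR). Of its 50-base windows, 84.6% occur in no other gene, so part of its reads may go uncounted.

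Rrm2 (chromosome 12, 24708241 to 24714146) rose from 8.91 ± 1.87 to 53.8 ± 19.2 CPM without IL-2 and fell from 644.4 ± 48.8 to 99.4 ± 17.1 CPM with it (mean ± SD, n = 5). Its 5 values at pH 6.6 without IL-2 were 45.1, 72.1, 76.8, 36.7 and 38.5 CPM, and those with IL-2 72.5, 94, 104.1, 112.5 and 114.1 CPM, so these 2 groups met, whereas at pH 7.4 they were far apart. The effect of IL-2 itself on Rrm2 was 6.18 at pH 7.4 and 0.95 at pH 6.6 on the log2 scale. Pbk, a mitotic kinase, had the most negative interaction of all named genes, at -5.75 ± 0.46, with means of 0.988, 10.8, 103.4 and 20 CPM in the order pH 7.4, pH 6.6, pH 7.4 with IL-2 and pH 6.6 with IL-2.

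**Figure D2:**
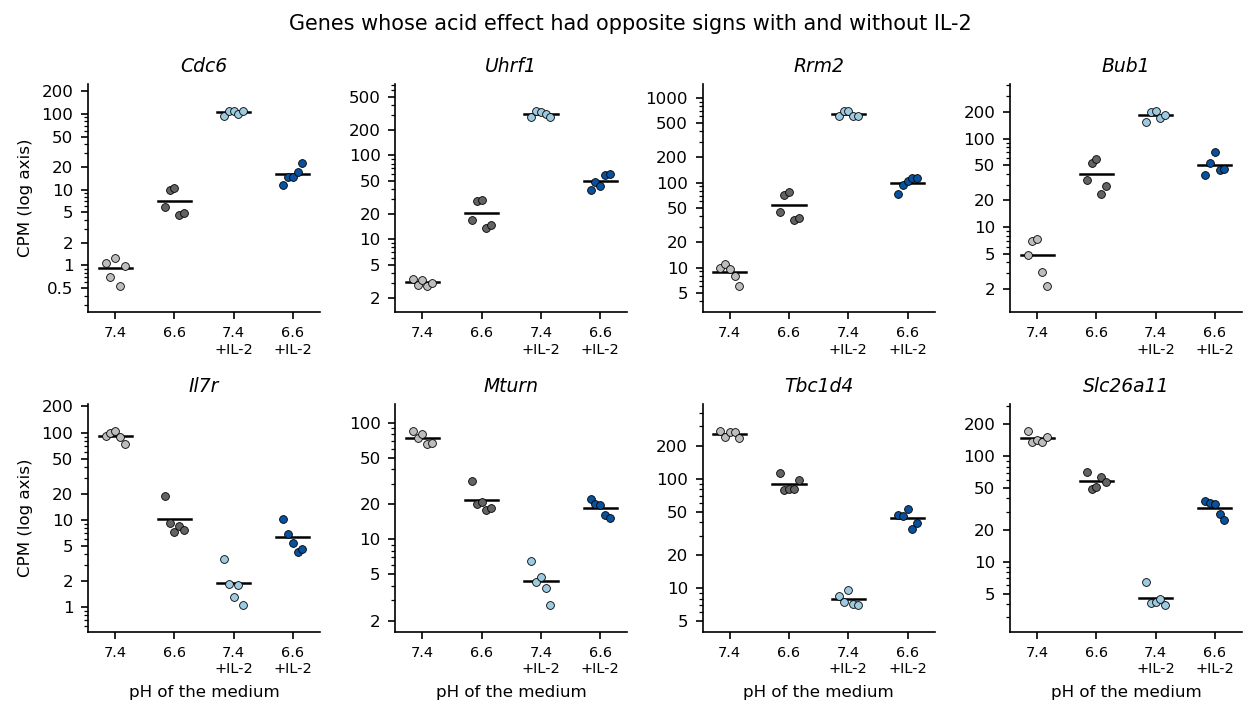
Each panel shows CPM on a log axis for 1 gene, with a point for each of 5 replicates and a line at the mean, in the 4 groups. In the upper row the 2 groups at pH 7.4 are far apart and those at pH 6.6 lie between them. In the lower row the order is turned over, with the highest level at pH 7.4 without IL-2 and the lowest at pH 7.4 with IL-2.

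The cell cycle lists as a whole were then counted. All 52 genes of the replication and S phase list were tested and all 52 had a lower acid effect with IL-2, with a median interaction of -2.61 beside 0.04 over all genes. Their median acid effect was -2.04 with IL-2, where 52 fell, and 0.71 without, where 42 rose and 2 fell. Of the list, 42 genes were in the reversed class and 8, among them Pcna and Pola1 (named after their values were seen), fell only with IL-2. Those classes held 9.89% and 3.39% of all genes tested. Over all genes tested, 32.8% had a lower interaction and 40.9% fell with IL-2, while 31.6% rose and 35.4% fell without it.

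Of 63 tested genes of the mitosis and G2/M list, 61 had a lower acid effect with IL-2 and 2 a higher one (32.8% and 34.3% over all genes). The median interaction was -3.87. The median acid effect was -1.61 with IL-2 and 2.06 without, and 59 of the 63 were in the reversed class (9.89% over all genes). Bub1, a kinase of the spindle checkpoint, had the most negative interaction of the list at -4.88 ± 0.32 (adjusted p = 5.93e-14, edgeR), with values of 4.78, 7.03, 7.33, 3.13 and 2.18 CPM at pH 7.4 without IL-2 and 33.8, 52.7, 58.9, 23.7 and 29.3 CPM at pH 6.6. With IL-2 it stood at 152.7, 199.6, 206.3, 169.9 and 183.3 CPM at pH 7.4 and at 38.6, 53.3, 69.8, 44.4 and 45.8 CPM at pH 6.6. At pH 6.6 the ranges with and without IL-2 thus overlapped, and at pH 7.4 they did not. Pttg1, the securin that holds separase in check, was the leading exception, with an acid effect of 0.79 with IL-2 and 0.16 without (interaction 0.63 ± 0.13, adjusted p = 0.000114, edgeR). Cenpa, the centromeric histone, rose with acid in both arms, by 0.97 and 3.23, and was singled out after its values were seen.

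Promoters of 3 genes with large reversals are shown so that their sequence can be read beside their values. They are the 250 bases before the start that RefSeq lists (GRCm38.p6), printed 5′ to 3′ on the gene's strand, with matches to 1 short motif in capitals. The motif is the CCAAT box (CCAAT, either strand) for Rrm2 and Bub1 and the cAMP response element (CRE, TGACGTCA) for Mturn, which rose with acid in the presence of IL-2 and is described after the cell cycle genes. Matches to other motifs were left in lower case. Among them is a CCAAT box on the other strand (ATTGG) in the window of Mturn. The windows lie on chr12:24708004-24708253 (plus strand), chr2:127831860-127832109 (minus) and chr6:54681374-54681623 (plus). GENCODE, from which the gene positions in the text come, starts Rrm2 and Bub1 a few bases earlier, inside the end of these windows.
Rrm2: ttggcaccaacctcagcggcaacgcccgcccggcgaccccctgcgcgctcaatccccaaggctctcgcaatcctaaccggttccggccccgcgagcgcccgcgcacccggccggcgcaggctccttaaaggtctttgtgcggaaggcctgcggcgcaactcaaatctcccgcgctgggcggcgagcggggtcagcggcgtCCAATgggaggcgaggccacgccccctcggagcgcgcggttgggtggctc
Bub1: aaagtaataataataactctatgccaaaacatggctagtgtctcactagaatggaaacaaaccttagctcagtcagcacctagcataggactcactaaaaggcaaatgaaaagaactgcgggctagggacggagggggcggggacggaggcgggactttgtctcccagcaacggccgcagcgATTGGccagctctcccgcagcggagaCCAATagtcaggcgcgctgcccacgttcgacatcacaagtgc
Mturn: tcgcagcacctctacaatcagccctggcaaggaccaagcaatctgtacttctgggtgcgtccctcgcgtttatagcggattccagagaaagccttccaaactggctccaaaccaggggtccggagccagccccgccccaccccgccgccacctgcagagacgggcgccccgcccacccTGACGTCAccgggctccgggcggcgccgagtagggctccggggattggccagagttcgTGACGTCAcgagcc

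Counted from the RefSeq start, the match in capitals in Rrm2 begins 50 bases before it, those in Bub1 68 and 42 and those in Mturn 72 and 14. Of 27025 promoters in the RefSeq table, 34.5% hold a CCAAT box in this window, 1.6% a CRE and 1.4% a match to E2F (TTTCCCGC or TTTGGCGC, either strand). In the mitosis list, 41 of 54 promoters in the table (75.9%) hold a CCAAT box, and in the replication list 27 of 43 (62.8%). The box was not particular to the cell cycle lists. It was in 15 of the 17 promoters found for the 24 tested cholesterol synthesis genes and in 14 of 29 (48.3%) of the ATF4 list. Other motifs were searched as well. An E2F match was found in 16.3% of the replication list and 1.9% of the mitosis list. Only 72.2% of the genes tested have a promoter in the table, so shares over them and over the reversed classes are void and not given. A match says only that the letters are present.

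The opposite reversal, a fall with acid without IL-2 and a rise with it, was led by Mturn, Il7r, Ndnf, Tbc1d4, Klrb1f and Ahnak2, all in this class in 12 of 12 refits. Il7r is the alpha chain of the receptor for interleukin-7, the survival cytokine of resting and memory T cells. Tbc1d4 (AS160) is a substrate of AKT that restrains traffic of glucose transporters, Mturn is a regulator named for a role in progenitor maturation, and Klrb1f is a lectin-like receptor of the NK gene complex.

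Il7r (ENSMUSG00000003882, chromosome 15, 9505788 to 9530176) stood at 91.7, 100.1, 105.6, 89.8 and 74.9 CPM at pH 7.4 without IL-2 and at 18.6, 9.18, 7.22, 8.51 and 7.7 CPM at pH 6.6. With IL-2 the values were 3.57, 1.81, 1.31, 1.78 and 1.04 CPM at pH 7.4 and 10.3, 6.8, 5.41, 4.23 and 4.62 CPM at pH 6.6. Replicate 1 was the highest of 5 in each group but the first, and the only overlap was between the groups at pH 6.6. The acid effect was -3.27 ± 0.15 without IL-2 and 1.72 ± 0.20 with it, and the interaction of 4.99 ± 0.25 (adjusted p = 1.04e-17, edgeR) was the most positive of the genes above the expression minimum for naming (a mean of 3 on the log2 CPM scale over the 20 libraries). At 0 h Il7r had a mean of 2.84 ± 0.922 CPM, near its level at pH 7.4 with IL-2.

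Mturn (chromosome 6, 54681624 to 54703851) fell with acid without IL-2 from 86, 73.6, 81, 66 and 67.1 CPM to 31.9, 20.3, 20.8, 18 and 18.5 CPM. With IL-2 it rose from 6.53, 4.3, 4.76, 3.81 and 2.71 CPM to 22.1, 20.1, 19.6, 16.2 and 15.2 CPM. The groups at pH 6.6 overlapped, with an IL-2 effect of -0.21 there against -4.11 at pH 7.4. Tbc1d4 went from 256.8 ± 18.4 to 89.3 ± 14.8 CPM without IL-2 and from 7.93 ± 1.10 to 43.6 ± 6.96 CPM with it, an interaction of 3.98 ± 0.15 (adjusted p = 8.72e-20, edgeR).

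Slc26a11, an anion transporter, had the next most positive interaction of these genes at 4.17 ± 0.17, with means of 148.2, 58.5, 4.61 and 32.5 CPM in the order given for Pbk. Tbx6, a T-box factor, followed at 4.12 ± 0.29 but was not reversed: acid raised it by 4.51 with IL-2, from 0.992 ± 0.198 to 22.4 ± 0.895 CPM, and by 0.39 without. Ctsl, a lysosomal cysteine protease, led the lysosome list with an acid effect of 2.03 with IL-2 and -0.41 without, although 73.7% of its windows are unique and 26.8% of its exon bases lie opposite another gene.

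In the list of memory and lymph node homing genes, 19 of 24 had a higher acid effect with IL-2 and 3 a lower one (34.3% and 32.8% over all genes). The median interaction was 1.39, from a median acid effect of 1.26 with IL-2 and -0.33 without. Of these genes, 8 were reversed and 4 rose only with IL-2 (8.39% and 2.17% over all genes). Eomes, a T-box factor of effector and memory cells, had the most negative interaction of the list. It went from 143.4 ± 8.06 to 117.2 ± 4.91 CPM without IL-2 and from 613.9 ± 43.3 to 190.5 ± 26.2 CPM with it (interaction -1.40 ± 0.13, adjusted p = 1.92e-11, edgeR).

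**Figure D3:**
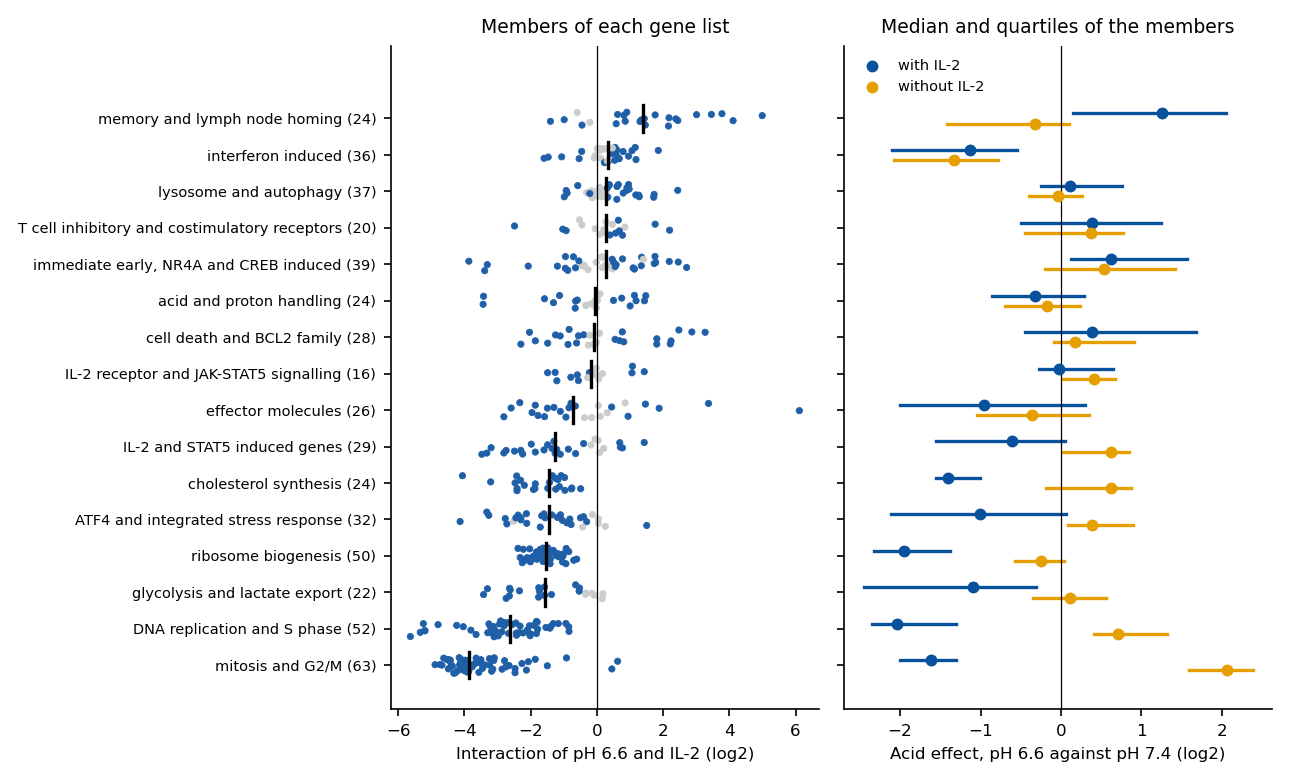
In the left panel each point is a gene of a list and its interaction on the log2 scale, in blue where it passed an adjusted p of 0.05 and grey where it did not, with a black bar at the list's median. The right panel gives the median (point) and quartiles (line) of the acid effect with IL-2 in blue and without IL-2 in orange. The mitosis list has medians of -1.61 and 2.06, the memory list of 1.26 and -0.33, and the interferon list of -1.14 and -1.33.

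The genes that fell with acid only in the presence of IL-2 were led by Tpi1, a glycolytic enzyme, Tfrc, the transferrin receptor, Ranbp1, a cofactor of nuclear transport, Hmgn2, a nucleosome-binding protein, Dbi, an acyl-CoA binding protein, and Hnrnpab, an RNA-binding protein. Without IL-2 their acid effects were between -0.26 and 0.02, and with IL-2 between -3.31 and -2.60. The share of windows unique to the gene was 84.1% for Ranbp1 and 76.2% for Hnrnpab. Ranbp1 shares 16.9% of its exon bases with another gene on the same strand, and 29.1% of those of Hnrnpab lie opposite another gene. Ranbp1 kept the class in 10 of 12 refits, Dbi in 11 and Hnrnpab in 12.

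Tfrc (chromosome 16, 32608920 to 32632794) stood at 48, 52.2, 67, 48.4 and 43.1 CPM at pH 7.4 without IL-2 and at 51.1, 58.8, 58.8, 37.2 and 56.6 CPM at pH 6.6, with overlapping ranges. With IL-2 it stood at 901, 1207.6, 1102.3, 915.4 and 896.8 CPM at pH 7.4 and at 129.9, 95, 100.5, 112.5 and 118.6 CPM at pH 6.6. The acid effect was 0.02 ± 0.13 without IL-2 and -3.17 ± 0.13 with it (interaction -3.19 ± 0.18, adjusted p = 4.21e-16, edgeR), and Tfrc stayed in this class in 12 of 12 refits.

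Tpi1 (chromosome 6, 124810586 to 124814296) averaged 47.2 ± 5.52 CPM at pH 7.4 and 47.2 ± 7.75 CPM at pH 6.6 without IL-2. With IL-2 its values at pH 7.4 were 319.7, 764.1, 787.5, 909.4 and 1165.2 CPM, a wide spread with replicate 1 lowest, and 67.7, 65.5, 54.4, 107.1 and 96.7 CPM at pH 6.6. The interaction was -3.30 ± 0.27 (adjusted p = 5.63e-12, edgeR). Tpi1 left the class without replicate 2 and without replicate 4. Hmgn2 kept it in 7 of 12 refits and passed edgeR's threshold without IL-2 too (-0.26 ± 0.11, adjusted p = 0.031), and 74.6% of its windows are unique.

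Among the genes that rose only with IL-2, the leading 6 were Arl5c, a small GTPase of the ARF family, Dtx4, an E3 ligase linked to Notch, Pik3ip1, an inhibitor of PI3K, S1pr1, the receptor through which T cells leave lymphoid organs, Acss1, a mitochondrial acetyl-CoA synthetase, and Mxd4, a partner of MAX that opposes MYC. With IL-2 their acid effects ran from 2.59 to 3.82 and without it from -0.18 to 0.23. Acss1 also passed edgeR's threshold without IL-2 (0.23 ± 0.07, adjusted p = 0.00704).

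S1pr1 (chromosome 3, 115710433 to 115715072) stood at 190, 159.9, 193.7, 102.6 and 119.5 CPM at pH 7.4 without IL-2 and at 191, 173.6, 188.2, 108.6 and 142 CPM at pH 6.6. With IL-2 the values were 24.3, 14.1, 19.8, 10.3 and 11.9 CPM at pH 7.4 and 163, 149.2, 176, 86.3 and 105.2 CPM at pH 6.6. The replicates differed from each other in the same way in each group, with replicates 4 and 5 lowest. The acid effect was 0.08 ± 0.11 without IL-2 and 3.10 ± 0.12 with it (interaction 3.01 ± 0.16, adjusted p = 1.68e-16, edgeR), and without the replicate block the gene left the class.

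Pik3ip1 was 255.6 ± 23.2 and 244.1 ± 13.7 CPM without IL-2 at pH 7.4 and pH 6.6, and 18 ± 1.58 and 166.5 ± 22 CPM with it. Its interaction was 3.27 ± 0.13 (adjusted p = 8.72e-20, edgeR). Dtx4 was 117.7 ± 6.37 and 116.6 ± 13.4 CPM without IL-2 and 6.48 ± 1.77 and 79.8 ± 10.3 CPM with it. For both, the acid effect with IL-2 led from a low level towards the level held without the cytokine at pH 7.4 and pH 6.6. At 0 h the mean was 52.6 CPM for Pik3ip1 and 11.3 CPM for Dtx4. Without IL-2 at pH 7, Dtx4 stood higher, at a mean of 173 CPM.

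**Figure D4:**
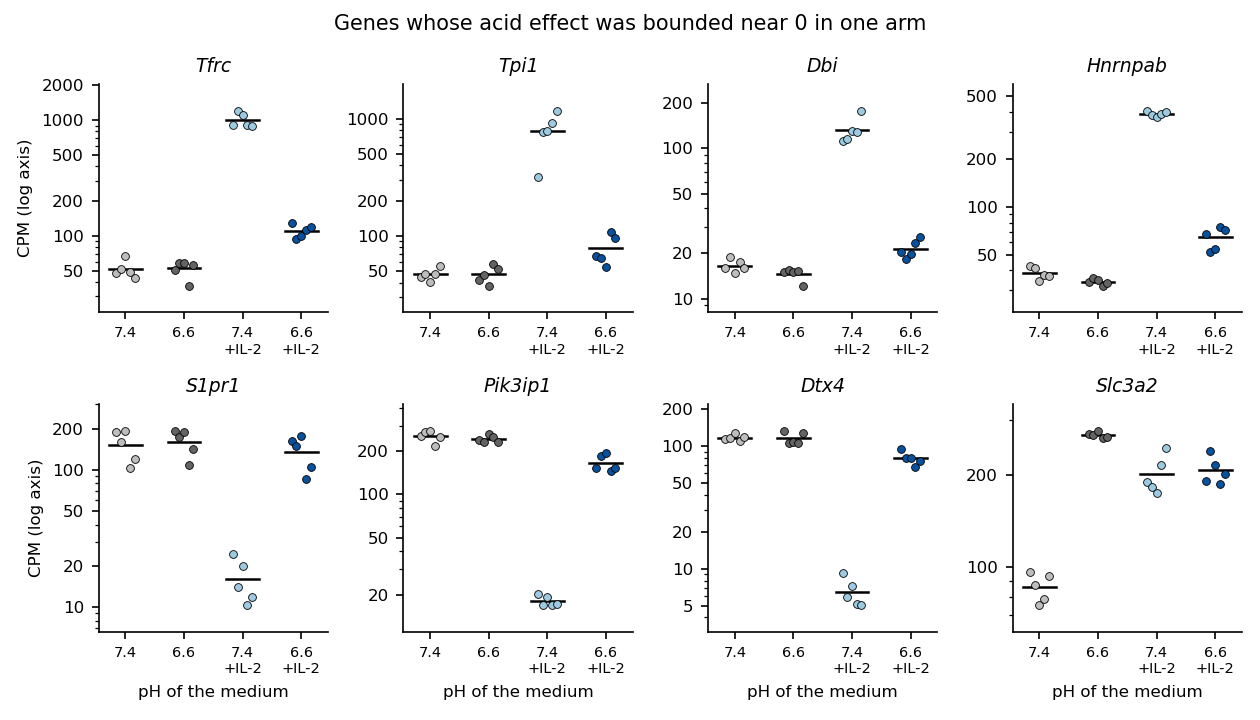
CPM on a log axis for each of 5 replicates (points) and their mean (line) in 4 groups. Tfrc, Tpi1, Dbi and Hnrnpab fall with acid only in the presence of IL-2, S1pr1, Pik3ip1 and Dtx4 rise only then, and Slc3a2 rises with acid only in its absence.

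An acid effect without IL-2 and none beyond the bound with it was less common. Among the genes that rose, Dmwd, Nr4a3, an orphan nuclear receptor of the immediate early response, Ppp1r3b, a glycogen-targeting phosphatase subunit, and Slc3a2, the heavy chain of CD98 amino acid transporters, led the class. Slc3a2 stood at 96.8, 87.5, 75.2, 78.8 and 93.9 CPM at pH 7.4 and at 270.8, 269.5, 278.2, 262.8 and 264.3 CPM at pH 6.6 without IL-2. With IL-2 it was 200.8 ± 28.6 CPM at pH 7.4 and 206.6 ± 21.2 CPM at pH 6.6, and its interaction was -1.59 ± 0.13 (adjusted p = 2.16e-12, edgeR). It kept the class in 12 of 12 refits. Nr4a3 rose from 9.57 ± 3.96 to 37.5 ± 9.99 CPM without IL-2 and was 32.1 ± 6.08 and 30.8 ± 9.52 CPM with it, but kept the class in 7 of 12 refits only, Dmwd in 9 and Ppp1r3b in 5.

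Those that fell only without IL-2 were led by Ifit1bl1, an interferon-induced gene, Slc27a1, a fatty acid transporter, Patj, a cell polarity scaffold, and Eps8l1, an EPS8-like actin regulator. Patj fell from 29.2, 31.4, 34.3, 26.5 and 30.2 CPM to 8.71, 6.99, 8.13, 8.47 and 10.1 CPM without IL-2. With IL-2 it was 8.11 ± 0.322 and 7.64 ± 0.873 CPM, level with the acid group (interaction 1.76 ± 0.14, adjusted p = 5.83e-13, edgeR). Ifit1bl1 fell from 104.4 ± 16.7 to 21.6 ± 3.87 CPM without IL-2, against 21 ± 6.05 and 19.2 ± 3.80 CPM with it. Slc27a1 kept the class in 6 of 12 refits and Eps8l1 in 4.

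The classes are tied to the effect of IL-2 at neutral pH, which uses the same libraries and is given as a description. The interaction equals the IL-2 effect at pH 6.6 minus that at pH 7.4. The directions at pH 7.4 thus follow in large part from how the classes were chosen. IL-2 against none passed the threshold for 11111 genes at pH 7.4 (80.4%), 5433 higher (39.3%) and 5678 lower (41.1%), and for 3278 genes at pH 6.6 (23.7%), 1819 higher (13.2%) and 1459 lower (10.6%). At pH 7.4, IL-2 raised 1365 of the 1367 genes that fell with acid in its presence and rose in its absence, and lowered 1155 of the 1159 with the opposite reversal. At pH 6.6 it raised 250 and lowered 28 of the former. The median effect of IL-2 on these 1367 genes was 1.44 at pH 7.4 and 0.05 at pH 6.6, and on the 1159 genes -1.78 and -0.13. For the 468 genes that fell with acid only with IL-2 it was 1.52 and 0.21, and for the 300 that rose only then -1.70 and -0.28.

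Lists of growth and biosynthesis were counted in the same way, beside 32.8% lower and 34.3% higher interactions over all genes tested. All 50 ribosome biogenesis genes had a lower acid effect with IL-2 (median interaction -1.52). With IL-2 all 50 fell (40.9% over all genes), with a median acid effect of -1.95. Without IL-2 the median was -0.25, with 25 falling and 8 rising (35.4% and 31.6% over all genes). Of the list, 17 fell only with IL-2 and 8 were reversed (3.39% and 9.89% over all genes). Grwd1, a ribosome assembly factor, had the most negative interaction of the list at -2.38 ± 0.24, with means of 5.36, 4.23, 52 and 8.10 CPM in the order pH 7.4, pH 6.6, pH 7.4 with IL-2 and pH 6.6 with IL-2. Of 22 glycolysis and lactate export genes, 16 had a lower acid effect with IL-2 and 0 a higher one. Slc16a3, the lactate exporter MCT4, fell by 3.35 on the log2 scale with IL-2 and had an acid effect of 0.07 ± 0.41 without, an interval too wide for the class. Its values without IL-2 were close together, 5.89 to 6.95 CPM at pH 7.4 and 5.3 to 7.36 at pH 6.6. At pH 7.4 with IL-2, replicate 1 stood at 26.6 CPM and the others at 143.1 to 226.6.

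All 24 tested cholesterol synthesis genes had a lower acid effect with IL-2 (median interaction -1.45), with median acid effects of -1.40 with IL-2 and 0.63 without. Of the 24, 14 were reversed (9.89% over all genes). Of 32 genes of the ATF4 and integrated stress response list, 25 had a lower acid effect with IL-2 and 1, Ddit3, a higher one. Ddit3 encodes CHOP, a stress-induced transcription factor, and rose with acid by 1.77 with IL-2, while its effect without IL-2, 0.26, did not pass the threshold (interaction 1.51 ± 0.21, adjusted p = 2.53e-07, edgeR). Pycr1, an enzyme of proline synthesis, had an interaction of -4.13 ± 0.61 at low levels, 0.136 ± 0.0531 CPM at pH 7.4 and 4.97 ± 2.61 CPM at pH 7.4 with IL-2.

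The IL-2 pathway itself was divided. Il2ra rose with acid without IL-2, from 216.3, 191.1, 176.3, 191.5 and 146.3 CPM to 302.1, 317.7, 328.1, 243.7 and 254.9 CPM. With IL-2 it fell from 549.3 ± 10.9 to 361.5 ± 27.2 CPM, an interaction of -1.26 ± 0.15 (adjusted p = 6.91e-09, edgeR). Il2rb fell with acid in both arms, by 0.79 with IL-2 and 0.51 without, and the interaction of -0.27 ± 0.14 did not pass the threshold (adjusted p = 0.0738, edgeR). It did pass in edgeR when only the 4 groups were fitted (-0.28, adjusted p = 0.0207) and without replicate 5 (-0.34, adjusted p = 0.0389). Il2rg showed an interaction of -0.10, with a 95% interval from -0.32 to 0.12. Of its windows 72.5% are unique, and its exons share 30.5% of their bases with another gene on the same strand.

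Socs2 and Socs3, inhibitors of cytokine signalling, parted. Socs2, a STAT5 target, rose with acid without IL-2 from 22.8 ± 2.63 to 61.7 ± 9.10 CPM and was 89 ± 15.6 and 85.4 ± 10.3 CPM with it (interaction -1.49 ± 0.13, adjusted p = 8.43e-12, edgeR). Socs3 rose with acid by 2.01 with IL-2, from 15.1, 12.8, 14.1, 18.4 and 20.3 CPM to 40.4, 48.7, 48.4, 110.7 and 82.7 CPM, and by 0.57 without. Its interaction was 1.43 ± 0.27 (adjusted p = 2.42e-05, edgeR). Of 29 IL-2 and STAT5 induced genes, 20 had a lower and 4 a higher acid effect with IL-2, and of the 16 genes of the receptor and JAK-STAT5 list 7 and 3. Over all genes tested the shares were 32.8% lower and 34.3% higher. The median interaction was -1.26 for the former list and -0.16 for the latter. Il1rl1, the receptor for interleukin-33, had the most negative interaction of the former, -3.47 ± 0.62, at a highest group mean of 1.47 CPM.

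Myc, the transcription factor of growth, was reversed. It stood at 17.2, 14.6, 14.7, 13.1 and 21.7 CPM at pH 7.4 and at 26, 28.2, 32.5, 20.8 and 23 CPM at pH 6.6 without IL-2. With IL-2 it stood at 148.5, 163.9, 172.9, 141.8 and 173.6 CPM at pH 7.4 and at 71.8, 45.9, 46.9, 55.6 and 53.9 CPM at pH 6.6. The acid effect was 0.69 ± 0.12 without IL-2 and -1.55 ± 0.11 with it (interaction -2.24 ± 0.16, adjusted p = 1.39e-13, edgeR). At pH 6.6 the groups with and without IL-2 did not overlap, unlike those of Bub1, and the IL-2 effect there was 1.07.

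Effector molecules held the most positive interaction of any named gene and a large negative one. Among the 4 groups, Ccl1, a chemokine, was detected mainly at pH 7.4 without IL-2, at 5.59, 15.4, 6.52, 16.4 and 6.72 CPM. Without IL-2 it stood at 0, 0.0327, 0.136, 0.164 and 0 CPM at pH 6.6, and at a mean of 4.75 CPM at pH 7. With IL-2 it was at most 0.892 CPM at pH 7.4 and pH 6.6. The interaction of 6.12 has a 95% interval from 3.47 to 8.77, which at these counts depends on few reads. Gzmb, granzyme B of cytotoxic granules, went from 124.3 ± 52.1 to 86.5 ± 16.9 CPM without IL-2 and from 7796 ± 935 to 844.8 ± 323 CPM with it (interaction -2.81 ± 0.23, adjusted p = 5.23e-12, edgeR). At pH 6.6 it stayed higher with IL-2, by 3.24 on the log2 scale. Over the list, 14 of 26 genes had a lower and 6 a higher acid effect with IL-2, beside 32.8% and 34.3% over all genes tested.

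Among survival genes and receptors, Bcl2l1 and Tnfrsf9 were reversed. Bcl2l1, which encodes the survival protein BCL-XL, rose without IL-2 from 16.3, 16.1, 15.9, 14.4 and 18.3 CPM to 33, 53.2, 40.1, 45 and 40.1 CPM, and with IL-2 fell from 100.8 ± 6.85 to 53.5 ± 8.35 CPM (interaction -2.29 ± 0.12, adjusted p = 3.34e-17, edgeR). Tnfrsf9, the costimulatory receptor 4-1BB, rose from 20.6 ± 5.06 to 36.6 ± 4.47 CPM without IL-2 and fell from 571.5 ± 164.3 to 183.9 ± 52.9 CPM with it. Ctla4, an inhibitory receptor, rose in both arms, by 2.84 with IL-2 and 0.64 without. Over all genes tested, 34.3% had a higher and 32.8% a lower interaction. The receptor list had 7 higher and 3 lower interactions among 20 genes (median 0.28), and the cell death list 11 and 11 among 28 (median -0.07).

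The interferon list fell in both arms. Of 36 interferon-induced genes, 33 fell with acid with IL-2 and 34 without (40.9% and 35.4% over all genes). The list had median acid effects of -1.14 and -1.33. Of its genes, 0 were reversed in either direction (9.89% and 8.39% over all genes). Their interactions were higher for 17 and lower for 5 (34.3% and 32.8% over all genes), with Ifit3 (1.86 ± 0.38) and Isg15 (-1.59 ± 0.32) at the ends. Only 48.8% of the windows of Ifit3 are unique to it. The immediate early, NR4A and CREB induced genes had median acid effects of 0.62 with IL-2 and 0.53 without, and 15 higher and 11 lower interactions among 39, near the 34.3% and 32.8% over all genes. Egr2 (2.71 ± 0.79) and Fosl1 (-3.87 ± 0.85) were at the ends of that list, at group means of at most 4.21 and 3.43 CPM, and for Fosl1 47.4% of windows are unique and 57.2% of exon bases lie opposite another gene.

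Of 37 lysosome and autophagy genes, 18 had a higher and 5 a lower acid effect with IL-2, beside 34.3% and 32.8% over all genes tested. Atp6v1h, a subunit of the proton pump of lysosomes, was reversed at small size, with 0.43 without IL-2 and -0.55 with it. Among 24 tested genes of acid and proton handling, 7 had a higher and 8 a lower interaction, near the 34.3% and 32.8% over all genes. Car13, a carbonic anhydrase, had an interaction of -3.43 ± 0.52 at group means of at most 1.15 CPM.

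At pH 7 few genes departed between the arms. The interaction of pH 7 and IL-2, which uses the same pH 7.4 libraries, passed the threshold for 662 genes (4.79%), 303 higher (2.19%) and 359 lower (2.6%). Mturn had a pH 7 interaction of 0.89 (adjusted p = 0.00108, edgeR), Dtx4 of 1.23 (adjusted p = 0.00147), Pik3ip1 of 0.90 (adjusted p = 0.000193) and Tfrc of -0.84 (adjusted p = 0.00629). Cdc6 at -0.59 (adjusted p = 0.335), Il7r at 0.68 (adjusted p = 0.131) and Myc at -0.29 (adjusted p = 0.349) did not pass in edgeR. Of the other cell cycle genes named by rule, Uhrf1, Pclaf and Pttg1 did not pass either. Mcm10 (-0.95, adjusted p = 0.0341), Rrm2 (-0.90, adjusted p = 0.0237) and E2f8 (-1.19, adjusted p = 0.0364) did pass in edgeR. So did Bub1 (-1.29, adjusted p = 0.0183) and Pbk (-1.63, adjusted p = 0.0361). Without IL-2, pH 7 itself raised Rrm2 by 0.76, E2f8 by 1.15, Bub1 by 1.15 and Pbk by 1.57, past the threshold.

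**Figure D5:**
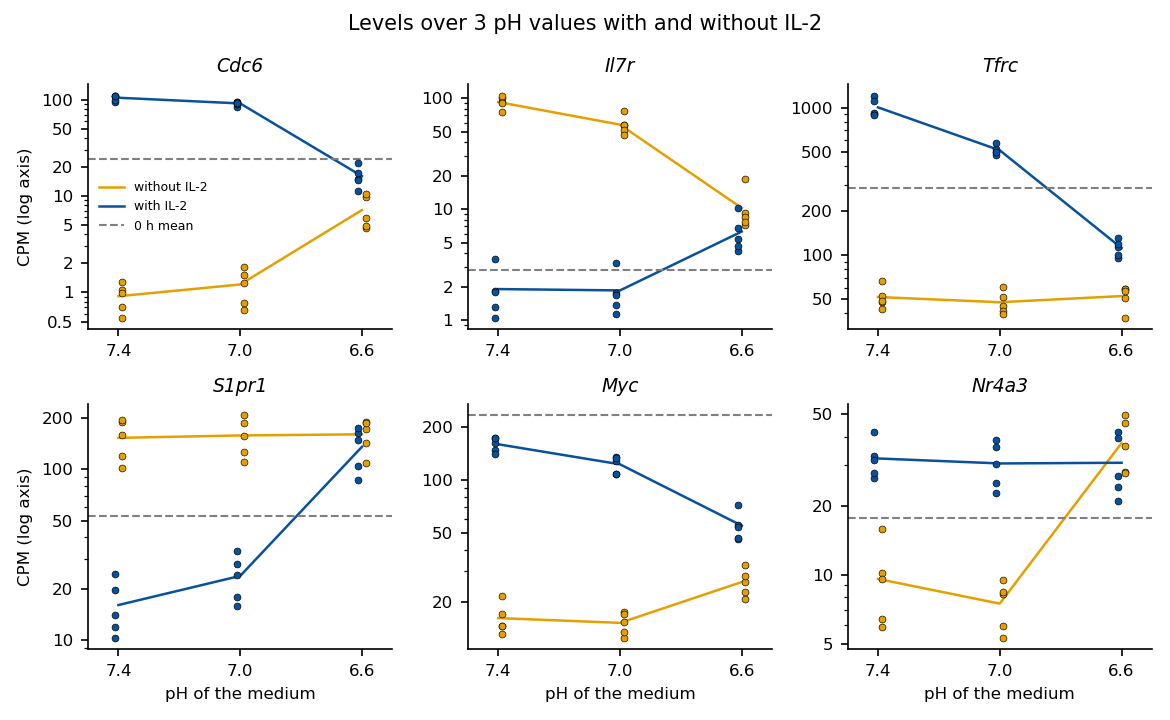
CPM on a log axis against the pH of the medium (falling to the right), with 5 replicates as points and lines through the means, without IL-2 in orange and with IL-2 in blue. The dashed line is the mean at 0 h. The arms of Cdc6, Il7r and S1pr1 lie far apart at pH 7.4 and pH 7 and closer at pH 6.6, where the effect of IL-2 was 1.195 for Cdc6 (5 of 5 values higher than any without IL-2), -0.69 for Il7r and -0.26 for S1pr1 on the log2 scale, Tfrc falls only with IL-2 (from a mean of 1005 through 513.4 to 111.3 CPM), and Nr4a3 rises only without IL-2, between pH 7 and pH 6.6.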

How the data were processed

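Counts of reads per gene were measured in 35 libraries (stranded mRNA, single reads, HiSeq). The raw counts were deposited by the authors, who per their processing notes trimmed reads with cutadapt 1.8, aligned them to GRCm38 with STAR 2.5.2b and counted with HTSeq 0.6.1. The strand setting and annotation release are not given in the sources used here. Multiply aligned reads, 32.8% to 40.64% of the reads of the 20 libraries compared, and reads in no feature (3.91% to 10.22%) stayed out of library sizes and tests. Genes with near-identical copies therefore lose reads, and the share of 50-base windows unique to a gene is given where it is below 90%.

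Genes were kept by edgeR 4.0.16 (R 4.3.3, filterByExpr, minimum count 10) over all 7 groups, which left 13819. All 35 libraries were fitted with TMM scaling, a robust quasi-likelihood test and the replicate number as a block, with Benjamini-Hochberg adjustment over all genes tested and a threshold of 0.05. Standard errors and 95% intervals are Wald. The study numbers its biological replicates 1 to 5. Deviations from group means correlated above 0.1 in 30 of 30 pairs of same-numbered libraries (0.115 to 0.641, median 0.308). Between different numbers they did so in 16 of 120 pairs (-0.368 to 0.282, median -0.108). Taking deviations from group means by itself pulls the latter below 0. No 2 libraries of a group agreed within sampling noise over 70 pairs. The pipeline was tested on simulated data.

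Genes were named by rule: among protein-coding genes above a mean log2 CPM of 3 with the same sign in 5 of 5 replicate numbers, the 6 leading genes of each reversed and only-with-IL-2 class, the 4 of each only-without-IL-2 class and the 4 most positive and negative interactions, then the ends of each gene list with no expression minimum, Myc and the IL-2 receptor chains. Of the genes so chosen, 2 are not reported here. The gene lists, rules and this comparison were chosen with earlier results of these data known. Alternatives were RLE scaling, DESeq2 1.42.0, looser and stricter filters, the 4 groups alone, no block, each replicate left out, thinning to the smallest library, and other thresholds. Promoter sequences are RefSeq's (GRCm38.p6), found for 48 of 61 named genes. Gene positions are from GENCODE on GRCm38.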

Additional observations from a re-analysis of the deposited data

Results flagged for a closer look

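The interaction itself is a difference between 2 arms under the same contrast, and so each of its counts is listed here: 9261 genes past the threshold, 2526 reversed, 768 with an acid effect only with IL-2 and 157 only without.

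Among 244 groups of 5 libraries of the named genes, 10 had 1 library apart from the other 4 by Dixon's test, where chance alone gives about 1 in 20. Replicate 1 was the library apart in 6 of the 10. At pH 6.6 without IL-2 it stood at 31.9 CPM for Mturn (others 18 to 20.8) and 18.6 for Il7r (7.22 to 9.18). At pH 7.4 with IL-2 it stood at 51.9 CPM for Ppp1r3b (75.7 to 82.0), 6.41 for Slc26a11 (3.88 to 4.51) and 0.892 for Ccl1 (0.0828 to 0.287). At pH 6.6 with IL-2 it stood at 16.4 CPM for E2f8 (20.7 to 21.3). The other 4 were Dbi at pH 6.6 in replicate 5 (12.2 against 15 to 15.6), Ctsl at pH 7.4 in replicate 4 (8.14 against 10.2 to 10.7), Ctsl at pH 6.6 in replicate 3 (8.72 against 6.96 to 7.36) and Atp6v1h at pH 6.6 with IL-2 in replicate 3 (72.6 against 56.5 to 60.0). Without replicate 1, each of these genes kept the direction of its interaction and its side of the threshold.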

How the results depend on the processing

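Of 786 values of the 61 named genes under other settings, 784 kept direction and side of the threshold, 0 reversed, and 2 (both of Il2rb) newly passed. An interaction of at least 1 in size left 4688 genes (2543 higher, 2145 lower). At least 0.5 in both arms left 1225 reversed genes (595 lower and 630 higher with IL-2). A margin of 0.3 left 251 genes that responded only with IL-2 (178 lower, 73 higher) and 34 only without (22 lower, 12 higher). Leaving out each replicate in turn gave 8420 to 8951 interactions (4110 to 4996 higher, 3749 to 4443 lower), 2130 to 2427 reversed genes (1052 to 1348 lower and 905 to 1233 higher with IL-2), 679 to 729 only with IL-2 (364 to 466 lower, 228 to 329 higher) and 121 to 152 only without (85 to 112 lower, 28 to 42 higher). The fall to 28 came without replicate 2, and the cause was not tested. Without the replicate block, 8703 genes passed (4398 higher, 4305 lower), 1236 and 977 were reversed, 443 and 237 responded only with IL-2, and 88 and 31 only without. RLE scaling gave 9258 interactions and DESeq2 9315. Classes that rest on an interval move more than the interactions, as the refits of single genes in the report show, and genes below a few CPM (Ccl1, Pycr1, Fosl1, Car13, Il1rl1) have wide intervals at this depth.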
